A study of Mus musculus with 17 samples.

Results

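The mRNA of 10 acute-phase proteins was followed in mouse lungs after endotoxin challenge: the serum amyloid A genes Saa1, Saa2 and Saa3, the orosomucoid genes Orm1 and Orm2, Lcn2, Hp, Cp, Hpx and Serpina3n. Members were chosen by name, as genes of proteins that rise in blood during inflammation, and were found by the gene symbol of each probe set on the array. All 10 were measured, by 17 of the 22626 probe sets tested, out of 12393 genes that had a probe set of their own. No filter on low values was applied. Cp had 7 probe sets and Saa1 had 2, and such a gene was read from the probe set with the highest average over all arrays, with the others given where they differed. Male wild-type mice (C57BL/6J) and male NOS2-/- mice, which lack the inducible nitric oxide synthase, weighed between 21 and 27 g and received saline or LPS from Escherichia coli at 20 mg/kg into a vein. Whole-lung RNA was read on 17 Affymetrix MOE430A arrays. Saline-treated lungs, from 4 wild-type mice and 1 NOS2-/- mouse, were all taken at 22 h. LPS-treated lungs came from 3 mice of each genotype at 7 h and from 3 others of each genotype at 22 h. Ages, and a strain for the NOS2-/- mice, are not given in the labels. The labels count mice, 1 for each array, and precision is limited by how few there were.

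Acute-phase proteins are secreted during infection and injury, most of them by the liver, under the control of interleukin-6, interleukin-1 and glucocorticoids. The signals reach their genes through STAT3, NF-kB and the C/EBP family of transcription factors. In the lung, several of the same genes are also active in epithelial cells, macrophages and neutrophils. Serum amyloid A proteins travel with high-density lipoprotein and attract leukocytes, and Saa3 is the form made mainly outside the liver. The orosomucoids, also called alpha-1-acid glycoproteins, bind drugs and dampen inflammation. Lcn2 withholds iron from bacteria by binding their siderophores, Hp captures free hemoglobin, Hpx captures free heme, Cp is the copper-carrying ferroxidase of plasma, and Serpina3n inhibits serine proteases.

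Promoter sequences were set beside the measurements for Saa3 and Saa1, the members with the highest rises, for Saa2, the near copy of Saa1, and for Orm2, the member with the largest genotype difference at 22 h. RefSeq windows on GRCm38.p6, from 250 bases before to 50 bases after a transcript start, were matched for 8 of the 10 members, all but Orm1 and Hp. These members had 9 windows, since Cp had windows at different transcript starts. The 250 bases before the start are printed 5′ to 3′ in the direction of the gene, and capitals mark each match to the C/EBP motif TTNNGNAA on either strand. Saa1 lies at chr7:46742981-46743230 on the minus strand, Saa2 at chr7:46751583-46751832 on the plus strand, Saa3 at chr7:46715677-46715926 on the minus strand and Orm2 at chr4:63362199-63362448 on the plus strand.
Saa1: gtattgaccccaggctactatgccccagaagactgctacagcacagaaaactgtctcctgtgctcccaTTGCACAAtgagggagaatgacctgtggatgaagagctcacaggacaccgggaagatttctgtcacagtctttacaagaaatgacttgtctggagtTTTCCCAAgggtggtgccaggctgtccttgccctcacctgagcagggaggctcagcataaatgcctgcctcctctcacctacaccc
Saa2: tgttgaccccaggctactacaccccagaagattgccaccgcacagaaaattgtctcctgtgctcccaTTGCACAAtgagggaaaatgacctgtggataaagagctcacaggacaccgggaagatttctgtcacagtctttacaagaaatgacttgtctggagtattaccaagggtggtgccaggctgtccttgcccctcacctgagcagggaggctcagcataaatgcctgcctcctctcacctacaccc
Saa3: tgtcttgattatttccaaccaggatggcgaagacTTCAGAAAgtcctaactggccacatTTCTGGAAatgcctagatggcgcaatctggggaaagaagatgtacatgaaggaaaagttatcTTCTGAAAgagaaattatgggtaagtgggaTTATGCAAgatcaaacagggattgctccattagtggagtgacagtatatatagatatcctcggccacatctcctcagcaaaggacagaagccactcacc
Orm2: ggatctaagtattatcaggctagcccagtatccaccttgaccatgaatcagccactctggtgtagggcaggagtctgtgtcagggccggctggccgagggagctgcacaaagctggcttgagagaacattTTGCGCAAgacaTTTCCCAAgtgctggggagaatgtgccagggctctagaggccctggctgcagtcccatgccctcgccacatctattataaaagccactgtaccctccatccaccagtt

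The windows of Saa1 and Saa2 were 95.35% identical (287 bases identical, 12 mismatches and 2 gapped positions), and those of Saa1 and Saa3 54.24%. The starts of Saa1 and Saa2 are 8.85 kb apart on opposite strands, and on chromosome 4 the coordinates of Orm1 end 14.3 kb before those of Orm2 begin. All 8 matched members had the C/EBP motif, which 40.7% of all 32851 RefSeq windows of this length also hold. In Orm2 one match, TTGCGCAA, reads the same on both strands and begins 120 bases before the start, and Saa3 had 4 matches. The STAT motif TTCNNNGAA and the NF-kB motif were in none of the member windows, and 8.3% and 8.46% of all windows hold them. The interleukin-6 response letters CTGGGA were found in Cp and Saa3 (31.8% of all windows), and TATAAA in Cp and Orm2 (13.6%). All motifs were searched on both strands, and different motifs could share bases. A match describes the letters only and is not a measured binding site.

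The arrays had medians between 8.46 and 8.55 on the log2 scale and highest values between 15.02 and 15.21. Lungs showed Sftpb, the gene of an alveolar surfactant protein, at 13.95 ± 0.13 (SD, n = 4) after saline. The probe set of Nos2, the targeted gene, was not lower in mice labelled NOS2-/-: after LPS it lay at 8.931, 8.995 and 9.064 in wild-type and 8.966, 8.999 and 8.848 in NOS2-/- mice at 7 h, and at 8.80, 8.19 and 8.48 against 9.20, 9.25 and 8.99 at 22 h. After saline it lay at 8.47, 8.17, 7.75 and 8.31 in wild-type mice and at 8.29 in the NOS2-/- mouse. In the limma fit the Nos2 probe set was 0.66 higher in NOS2-/- than in wild-type mice at 22 h after LPS (adjusted p = 0.0123). The sources used here do not say whether this probe set falls inside the deleted part of the gene, so it gave no check of the genotype labels, and every genotype difference rests on those labels. One array stood apart. Wild-type LPS 22 h replicate 2 correlated with its group at 0.949 and 0.955, while the lowest correlation within any other group was 0.992. Wild-type saline mice had means of 7.78 to 7.89 over 11 squamous epithelium genes and 6.98 to 7.07 over 12 skeletal muscle genes. The NOS2-/- saline mouse had higher means, of 10.06 and 9.24, and the source of this signal was not tested. Krt4, a squamous keratin gene, lay at 14.21 there, where the wild-type saline mice spanned 8.26 to 8.65. Counts of members called in comparisons that use replicate 2 are given with and without it. Counts and differences of the further gene lists come from the fit with that mouse, and were not computed without it. Responses of NOS2-/- mice are given against their own saline mouse and against the wild-type saline mice, while their difference from the wild-type response has no value without that single mouse.

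In wild-type lungs, endotoxin raised 9 of the 10 genes at 7 h and all 10 at 22 h (limma, Benjamini-Hochberg adjusted p under 0.05). Over all probe sets, 14.4% were higher at 7 h and 12.8% at 22 h. The median log2 fold change of the members was 2.62 at 7 h and 2.88 at 22 h, against -0.05 and -0.004 over all probe sets. Without wild-type LPS 22 h replicate 2 all 10 genes were called at both times, with log2 fold changes at 22 h between 0.87 and 6.57. In that fit 19.4% of all probe sets were higher at 7 h and 19.5% at 22 h. Saline mice were available at 22 h only, so the 7 h response was measured against mice harvested later. Saa3 and Saa1 rose most among the members at both times. Saa3 lay at 7.51, 7.78, 7.90 and 7.72 after saline, at 14.08, 14.16 and 14.15 at 7 h and at 14.24, 14.06 and 14.36 at 22 h. The groups were far apart, and the 7 h and 22 h mice overlapped. Its rise was 84.5-fold at 7 h (log2 fold change 6.40, SE 0.09, adjusted p = 4.56e-16) and 90.0-fold at 22 h (log2 fold change 6.49, SE 0.09, adjusted p = 3.71e-16), the highest of all 22626 probe sets at both times.

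Saa1 lay at 6.57, 6.24, 6.98 and 6.53 after saline in wild-type mice, at 11.79, 12.10 and 11.82 at 7 h and at 11.82, 11.75 and 12.24 at 22 h. It rose 39.99-fold at 7 h and 40.8-fold at 22 h (log2 fold changes 5.32 and 5.35, SE 0.21 for each), which was the sixth and the third highest rise on the array. Saa2 rose less on its probe set, from between 7.89 and 8.15 after saline to between 10.33 and 10.51 at 7 h and between 9.53 and 10.40 at 22 h (log2 fold changes 2.36 and 1.88, SE 0.20 for each). These genes are close copies, and their probe sets may read each other's transcripts: the second probe set of Saa1 was designed on an accession that RefSeq gives to Saa2. That probe set rose by 4.93 log2 units at 7 h and by 4.82 at 22 h (SE 0.34 for each), nearer to the other Saa1 probe set than to that of Saa2. The Saa2 probe set is listed with the same accession, and lay higher in saline-treated wild-type mice (7.89 to 8.15 against 5.62 to 7.40). Which of them follows the Saa2 transcript was not tested, so the smaller rise of Saa2 holds for its probe set only.

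**Figure D1:**
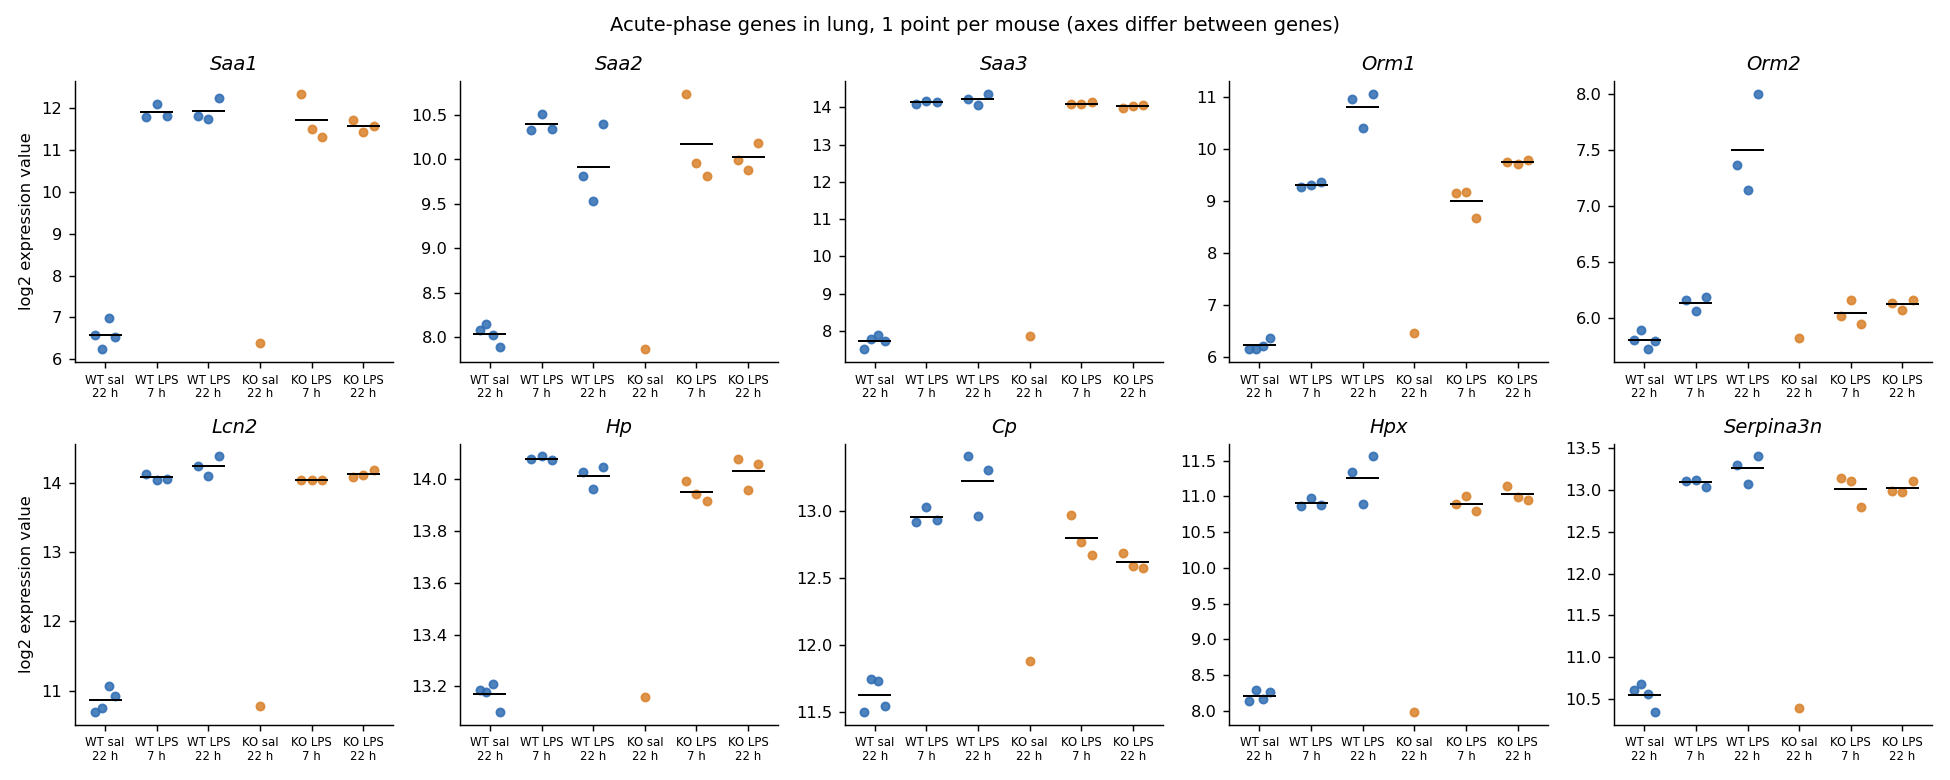
Log2 expression values of the 10 acute-phase genes, 1 point per mouse, in 6 groups (WT, wild-type; KO, NOS2-/-; sal, saline), with black lines at group means and an axis of its own for each gene. Saa3 lies between 7.51 and 7.90 in saline-treated wild-type mice and between 13.99 and 14.36 in all LPS mice, while Orm1 and Orm2 are highest in wild-type mice at 22 h.

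Of the orosomucoid genes, Orm1 rose by 7 h and further by 22 h, and Orm2 was called at 22 h only. Orm1 lay at 6.15, 6.16, 6.20 and 6.37 in saline-treated wild-type mice, at 9.26, 9.32 and 9.36 at 7 h and at 10.97, 10.41 and 11.06 at 22 h. The groups did not overlap, and the rise was 8.52-fold at 7 h and 24.1-fold at 22 h (log2 fold changes 3.09 and 4.59, SE 0.14 for each). Orm2 lay at 5.80, 5.90, 5.72 and 5.80 after saline, at 6.16, 6.06 and 6.19 at 7 h and at 7.362, 7.144 and 7.999 at 22 h. At 7 h its value was 0.33 above saline (SE 0.14, adjusted p = 0.0880) and did not pass the test, although the 3 mice lay above the 4 saline mice. It passed without wild-type LPS 22 h replicate 2 (adjusted p = 0.0146) or replicate 3 (adjusted p = 0.00261), which enter this comparison only through the pooled spread, and with both groups fitted alone (adjusted p = 0.00135). At 22 h Orm2 rose 3.24-fold (log2 fold change 1.70, SE 0.14, adjusted p = 1.65e-07). Its saline values lay near the bottom of the range of the array, where the lowest value was 4.77.

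Lcn2 lay at 10.70, 10.75, 11.07 and 10.92 after saline, at 14.13, 14.04 and 14.06 at 7 h and at 14.24, 14.11 and 14.38 at 22 h in wild-type mice. It rose 9.30-fold and 10.4-fold (log2 fold changes 3.22 and 3.38, SE 0.09 for each). The scavengers of hemoglobin and heme differed in their response. Hp was bright from the start, at 13.10 to 13.21 after saline, and rose 1.88-fold at 7 h and 1.79-fold at 22 h (log2 fold changes 0.91 and 0.84, SE 0.06 for each). Hpx lay between 8.13 and 8.29 after saline, between 10.87 and 10.98 at 7 h and between 10.90 and 11.56 at 22 h, a rise of 6.503-fold and 8.33-fold. Cp rose 2.50-fold and 3.02-fold, from values of 11.50, 11.74, 11.73 and 11.54 to 12.91, 13.02 and 12.93 at 7 h and 13.40, 12.96 and 13.30 at 22 h. Serpina3n lay between 10.35 and 10.68 after saline, between 13.04 and 13.11 at 7 h and between 13.07 and 13.40 at 22 h, a rise of 5.80-fold and 6.52-fold. Saa3, Lcn2 and Hp came close to the highest values of their arrays after LPS, and whether the top of the range compressed their differences was not tested.

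In NOS2-/- mice endotoxin raised 9 of the 10 genes at each time (8.78% of all probe sets were higher at 7 h and 11.6% at 22 h). The members had a median log2 fold change of 2.59 at 7 h and 2.84 at 22 h, against 0.04 and 0.03 over all probe sets. These values rest on 1 saline mouse, which was assumed to vary like the mice of the other groups. Saa3 rose from 7.87 to 14.08, 14.08 and 14.14 at 7 h and to 13.99, 14.03 and 14.06 at 22 h, which was 74.8-fold and 71.2-fold. Saa1 rose from 6.39 to 12.34, 11.51 and 11.31 and to 11.71, 11.43 and 11.57, which was 40.2-fold and 36.2-fold. At 7 h, replicate 1 was the highest of the NOS2-/- mice for Saa1, and also for Saa2 (10.73 against 9.95 and 9.81).

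Orm2 was the member that did not pass the test in NOS2-/- mice. Its values were 5.82 after saline, 6.02, 6.16 and 5.94 at 7 h and 6.14, 6.07 and 6.17 at 22 h. All 6 LPS mice lay above the saline mouse, with log2 fold changes of 0.22 at 7 h (SE 0.21, adjusted p = 0.513) and 0.30 at 22 h (SE 0.21, adjusted p = 0.353). With both groups fitted alone, the latter passed (adjusted p = 0.00899). Against the 4 wild-type saline mice the values of Orm2 were 0.24 (adjusted p = 0.210) and 0.32 (adjusted p = 0.0874), and the same 9 genes were raised at each time. Orm1 rose from 6.45 to 9.15, 9.18 and 8.68 at 7 h and to 9.75, 9.72 and 9.80 at 22 h, which was 5.86-fold and 9.86-fold. Cp rose from 11.88 to 12.96, 12.76 and 12.67 and to 12.68, 12.59 and 12.58, which was 1.88-fold and 1.66-fold. Lcn2 rose 9.58-fold and 10.2-fold, Hpx 7.53-fold and 8.27-fold, Serpina3n 6.16-fold and 6.18-fold, Saa2 4.91-fold and 4.45-fold, and Hp 1.73-fold and 1.83-fold. Against the 4 wild-type saline mice, Saa3 rose 82.8-fold and 78.8-fold, Saa1 35.2-fold and 31.7-fold, Orm1 6.88-fold and 11.6-fold, and Cp 2.25-fold and 1.98-fold. With that control Lcn2 rose 9.05-fold and 9.63-fold, Hpx 6.45-fold and 7.07-fold, and Serpina3n 5.52-fold and 5.53-fold. Saa2 then rose 4.38-fold and 3.96-fold, and Hp 1.72-fold and 1.82-fold.

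**Figure D2:**
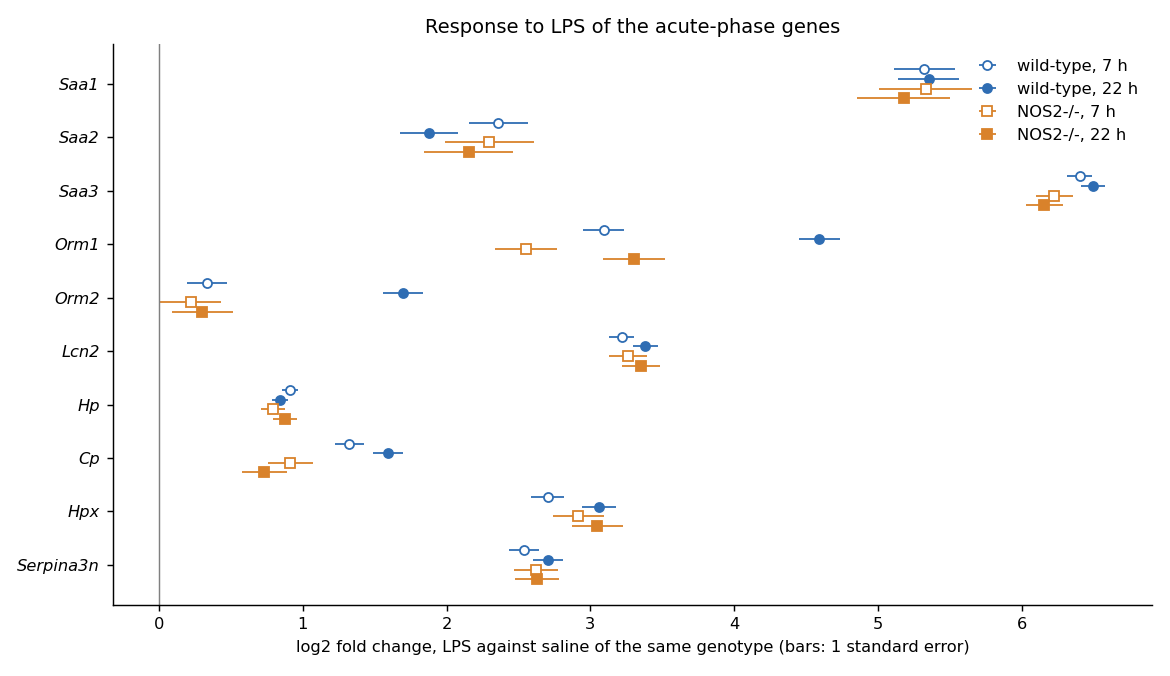
Log2 fold change of each gene after LPS against saline of the same genotype (x axis), with bars of 1 standard error, for wild-type (circles) and NOS2-/- mice (squares) at 7 h (open) and 22 h (filled). For Orm1 the wild-type value at 22 h is 4.59 against 3.30 in NOS2-/- mice, and for Orm2 it is 1.70 against 0.30.

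Genotypes were next compared directly after LPS, which does not use the NOS2-/- saline mouse. At 7 h no member differed between NOS2-/- and wild-type mice by limma (2.01% of all probe sets did, in either direction), and 1 member, Hp, had an unadjusted p under 0.05 (0.047, log2 difference -0.13). The 95% intervals of the difference, NOS2-/- minus wild-type, reached from -0.23 to 0.17 for Saa3, from -0.24 to 0.16 for Lcn2 and from -0.67 to 0.31 for Saa1. Orm1 was 0.31 lower (95% interval -0.63 to 0.01, adjusted p = 0.240), with no overlap between the genotypes. It passed without wild-type LPS 22 h replicate 2 (adjusted p = 0.0357), a mouse that enters this comparison only through the pooled spread. In that fit 14.1% of all probe sets were lower in NOS2-/- mice, against 1.48% with that mouse.

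At 22 h, Orm1, Orm2 and Cp were lower in NOS2-/- than in wild-type mice, 3 of the 10 genes, where 6.81% of all probe sets were lower. The median difference of the members was -0.24, against 0.009 over all probe sets. Orm2 lay between 6.07 and 6.17 in the 3 NOS2-/- mice and between 7.144 and 7.999 in the 3 wild-type mice. The genotypes did not overlap, and Orm2 was 2.60-fold lower (log2 difference -1.38, SE 0.15, adjusted p = 3.14e-05). Orm1 lay between 9.72 and 9.80 in NOS2-/- mice and between 10.41 and 11.06 in wild-type mice. It was 2.08-fold lower, also without overlap (log2 difference -1.06, SE 0.15, adjusted p = 2.74e-04). Cp lay between 12.58 and 12.68 in NOS2-/- mice and between 12.96 and 13.40 in wild-type mice. Its difference was 1.52-fold (log2 difference -0.61, SE 0.11, adjusted p = 0.00161), and with these 2 groups fitted alone its adjusted p was 0.0599.

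The other 7 genes did not pass the test between genotypes at 22 h. For Lcn2 the 95% interval of the log2 difference was -0.31 to 0.09, for Hp -0.11 to 0.15 and for Saa3 -0.39 to 0.004. The interval of Hpx was -0.50 to 0.03, and that of Serpina3n -0.47 to -0.005 (adjusted p = 0.168). The serum amyloid genes Saa1 and Saa2 had wider intervals, of -0.86 to 0.12 and -0.36 to 0.57. Wild-type LPS 22 h replicate 2, the array that stood apart, had the lowest value of its group for all 10 genes.

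Without this mouse the number of lower genes in NOS2-/- mice at 22 h was 6 of 10 rather than 3, while 15.4% of all probe sets were then lower. The added genes were Saa3 (log2 difference -0.27, adjusted p = 0.0282), Hpx (-0.42, adjusted p = 0.00161) and Serpina3n (-0.33, adjusted p = 0.0254). The differences of Orm1, Orm2 and Cp were then -1.26, -1.56 and -0.74.

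**Figure D3:**
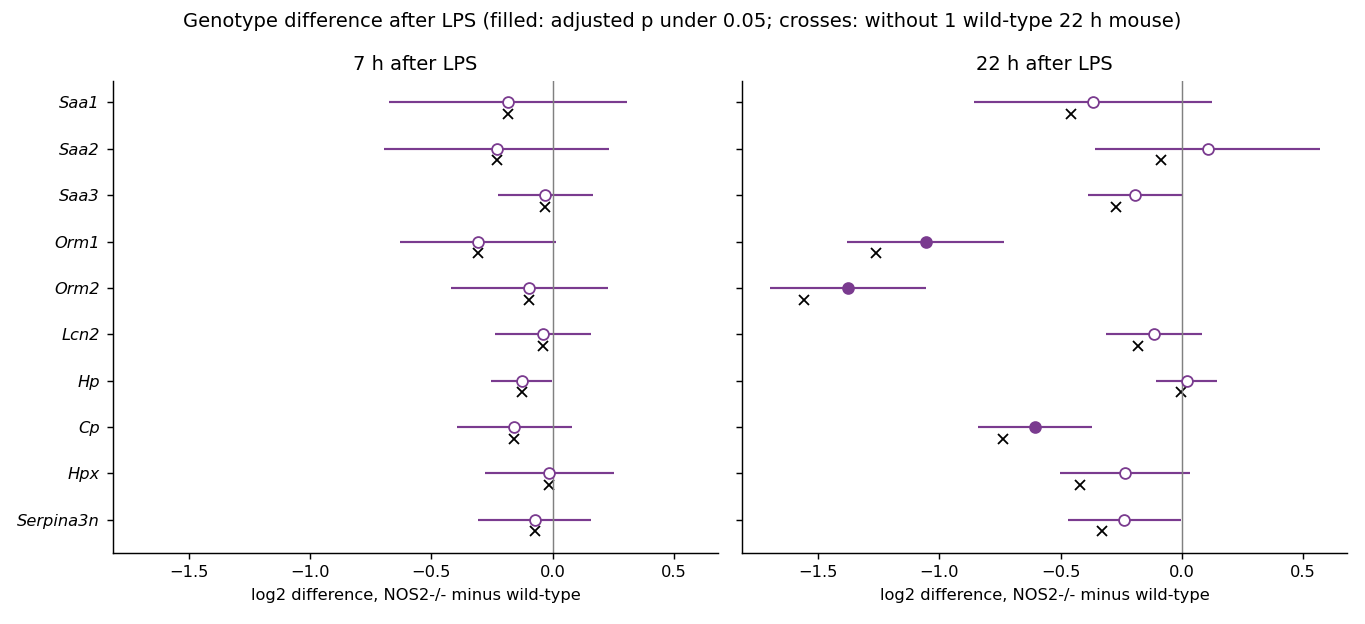
Log2 difference of NOS2-/- minus wild-type mice after LPS (x axis) at 7 h and 22 h, with 95% intervals from the limma fit. Filled points passed an adjusted p of 0.05, and crosses give the difference without wild-type LPS 22 h replicate 2. At 22 h the filled points are Orm1 (-1.06), Orm2 (-1.38) and Cp (-0.61).

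The change from 7 h to 22 h was compared within each genotype. In wild-type mice Orm1 rose further by 1.499 log2 units (SE 0.15, adjusted p = 1.84e-05) and Orm2 by 1.36 (SE 0.15, adjusted p = 3.79e-05). No other member passed the test, and 3.15% of all probe sets were higher. Saa2 was 0.48 lower at 22 h (adjusted p = 0.177) and passed without wild-type LPS 22 h replicate 3 (-0.72, adjusted p = 0.0283). Without replicate 2, Cp (0.40, adjusted p = 0.00624) and Hpx (0.54, adjusted p = 3.31e-04) were higher at 22 h as well. Of all probe sets, 7.41% were then higher. In NOS2-/- mice Orm1 rose by 0.75 (SE 0.15, adjusted p = 0.00680) and was the only member called, where 4.65% of all probe sets were higher. Orm2 differed by 0.08 between these times (95% interval -0.24 to 0.40).

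These changes were compared between genotypes by an interaction contrast. It was negative for Orm2, whose change from 7 h to 22 h was 1.28 log2 units smaller in NOS2-/- mice (SE 0.21, adjusted p = 0.00508). This was 1 of 10 members, where 0.544% of all probe sets were called in that direction. For Orm1 the difference was -0.75 (SE 0.21, adjusted p = 0.0726). It passed without wild-type LPS 22 h replicate 2 (-0.95, adjusted p = 0.00124) and without NOS2-/- LPS 7 h replicate 3 (-0.91, adjusted p = 0.0355). Without the former, Cp (-0.58, adjusted p = 0.00863) and Hpx (-0.41, adjusted p = 0.0422) were called too. In that fit 2.67% of all probe sets were called in that direction.

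The responses to LPS over saline were compared between genotypes in the same way, with the single NOS2-/- saline mouse as the baseline of its genotype. At 7 h no member differed (1.09% of all probe sets did, in either direction), and Cp was the member with an unadjusted p under 0.05 (0.0442, log2 difference -0.41). At 22 h the response was smaller in NOS2-/- mice for Orm2 by 1.40 log2 units (SE 0.26, adjusted p = 0.00531). It was smaller for Orm1 by 1.29 (SE 0.26, adjusted p = 0.00911) and for Cp by 0.86 (SE 0.19, adjusted p = 0.0151). These were 3 of 10 members, where 2.18% of all probe sets were called in that direction. The NOS2-/- saline mouse lay above all wild-type saline mice for Orm1 (6.45 against 6.15 to 6.37) and Cp (11.88 against 11.50 to 11.74). For Orm2 it lay among them (5.82 against 5.72 to 5.90). A higher baseline makes a response smaller, and its part in these differences was not tested. Without wild-type LPS 22 h replicate 2, 4 members were called, with Saa3 added (-0.42, adjusted p = 0.0498), and 9.34% of all probe sets were lower. Orm2, Orm1 and Cp were then at -1.57, -1.49 and -0.99. The comparisons at 22 h share the LPS groups, so they are not independent of the direct genotype comparison. The call of Cp was lost when the groups were fitted alone (adjusted p = 0.0635).

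Cp was read by 7 probe sets, which did not all move together between genotypes. In wild-type mice at 7 h all 7 were higher than saline, by between 0.823 and 1.997 log2 units. At 22 h 6 were higher, and 1417497_at, the dimmest, was 0.37 higher without passing the test (adjusted p = 0.0675). In the genotype comparison at 22 h, 5 of the 7 were lower in NOS2-/- mice. The values were -0.61 for 1417494_a_at, -0.68 for 1455393_at, -0.68 for 1417495_x_at, -0.54 for 1448734_at and -0.54 for 1417496_at. The other 2, 1448735_at and 1417497_at, had differences of -0.04 (adjusted p = 0.906) and 0.10 (adjusted p = 0.712). On these, wild-type replicate 2 lay far below its group, at 9.79 against 10.37 and 10.76 and at 8.07 against 8.66 and 8.84. It also lay below its group on 1448734_at, which was called, at 11.15 against 11.75 and 11.92. Which transcript forms of Cp each probe set reads was not analysed here.

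**Figure D4:**
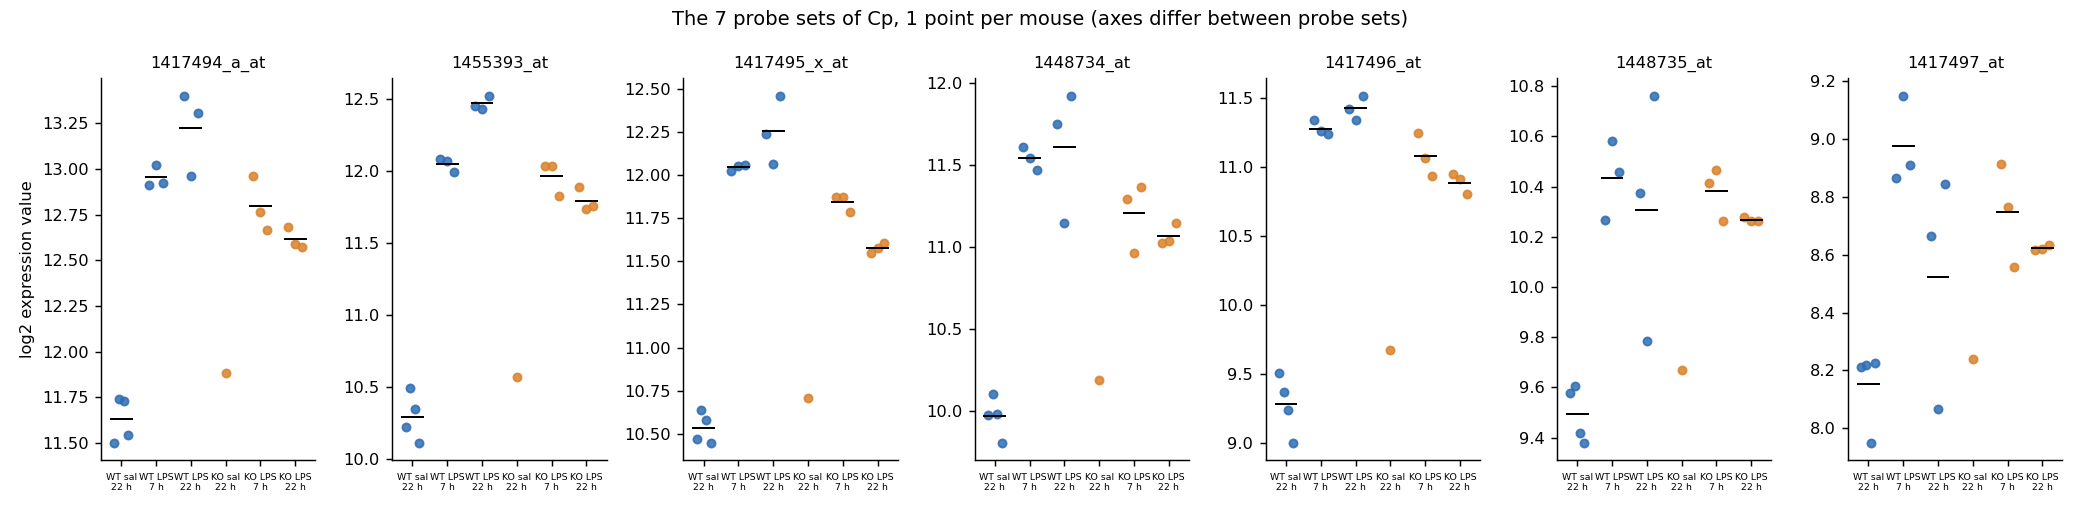
Log2 values of the 7 probe sets of Cp, 1 point per mouse, in the 6 groups (WT, wild-type; KO, NOS2-/-; sal, saline), with lines at group means and an axis of its own for each probe set. In 1448735_at and 1417497_at the lowest wild-type mouse at 22 h (9.79 and 8.07) lies below all NOS2-/- mice of that time.

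Other acute-phase genes rose in part. Over all probe sets, the shares for reading the counts of this and the next gene lists were 12.8% higher and 20% lower in wild-type mice at 22 h, 11.6% higher and 16% lower in NOS2-/- mice at 22 h, and 9.63% higher and 6.81% lower in NOS2-/- than in wild-type mice at 22 h. At 7 h, 14.4% were higher and 17.9% lower in wild-type mice, and 8.78% were higher and 13.7% lower in NOS2-/- mice. Of 28 listed genes 22 were measured, and 12 were higher and 1 lower in wild-type mice at 7 h, with 14 higher and none lower at 22 h (median log2 fold change 0.45, against -0.004 over all probe sets). The highest rises at 22 h were those of Timp1, an inhibitor of matrix metalloproteinases (3.32), Cd14, the LPS co-receptor (3.00), and Cfb, complement factor B (2.59). Il1rn, the interleukin-1 receptor antagonist, rose by 2.52, Ptx3, a pentraxin of innate defence, by 2.47, and Fgg, the fibrinogen gamma chain, by 2.39. In NOS2-/- mice 11 were higher at 7 h and 9 at 22 h. Between genotypes at 22 h, 3 were lower and 1 was higher in NOS2-/- mice. The higher one was Ptx3, by 1.62 (adjusted p = 2.38e-04), opposite in direction to Orm1 and Orm2. Of 9 measured genes whose plasma proteins fall in the acute phase, 2 were lower in wild-type mice at 22 h, a share near the 20% of all probe sets. They were Igf1, the insulin-like growth factor gene (-0.77), and Rbp4, the retinol carrier gene (-0.74). Alb, the albumin gene, had a change of 0.08 (adjusted p = 0.573).

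Of 10 measured cytokines that induce acute-phase genes, 5 were higher and 2 lower in wild-type mice at 7 h, and 6 were higher at 22 h. The numbers higher in NOS2-/- mice were 3 at 7 h and 5 at 22 h, with none lower. Il6 rose from 6.19 ± 0.30 (SD, n = 4) to 9.90 ± 0.43 (SD, n = 3), and Il1b, the interleukin-1 beta gene, from 9.51 ± 0.27 to 12.46 ± 0.20 in the same mice. Csf3, the granulocyte colony-stimulating factor gene, rose by 2.55, and Tnf rose by 0.41. In NOS2-/- mice Il6 reached 11.37 ± 0.69 (SD, n = 3) at 22 h, which was 1.47 above wild-type (limma adjusted p = 0.0154) and again opposite in direction to Orm1, Orm2 and Cp. Between genotypes, 3 of the 10 cytokines were higher in NOS2-/- mice at 22 h. At 7 h, 1 was higher and 1 lower, where 0.526% and 1.48% of all probe sets were. The part of these cytokines in the genotype differences was not tested. Of 10 measured cytokine receptors 7 were higher and 2 lower in wild-type mice at 22 h. Il1r2, the decoy receptor of interleukin-1, rose by 4.19, Osmr, the oncostatin M receptor, by 1.67, and Lifr, the receptor of leukemia inhibitory factor, fell by 1.87.

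Among 17 measured transcription factors and kinases of these pathways, 8 were higher and 3 lower in wild-type mice at 22 h. Cebpb and Cebpd, which encode the C/EBP proteins induced in inflammation, rose by 1.66 and 1.95, and Stat3 by 0.89. Hif1a, the hypoxia factor, rose by 2.15 and Nfkbiz, a cofactor of NF-kB, by 1.82. Between genotypes at 22 h, 7 of these genes were higher in NOS2-/- mice and 1 was lower, with Nfkbiz 0.97 higher (adjusted p = 3.39e-04) and Cebpb 0.37 higher (adjusted p = 0.00159). All 14 listed feedback inhibitors were measured, of which 11 were higher in wild-type mice at 22 h. Socs3, the inhibitor of interleukin-6 signalling, rose by 2.81, Tnfaip3, an inhibitor of NF-kB, by 1.46, and Socs1 by 1.198. Of 19 measured receptors and partners of the acute-phase proteins, 6 were higher and 6 lower. Fpr2, a receptor of serum amyloid A on leukocytes, rose by 3.78, and Mmp9, which binds the Lcn2 protein, by 1.93. Cd36, a scavenger receptor, fell by 1.85, and Lrp2, an endocytic receptor of Lcn2, fell by 1.42. Wild-type LPS 22 h replicate 2 had the lowest list mean of its group for the transcription factors and kinases (10.63 against 10.77 and 10.70). It was also lowest for the feedback inhibitors (10.92 against 11.19 and 11.11), but not for the receptors and partners (9.51 against 9.65 and 9.49). Its part in the genotype differences of these lists was not tested.

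Most neutrophil genes were also higher after LPS. Of 18 measured, 15 were higher in wild-type mice at 22 h and 17 in NOS2-/- mice. They included Ngp, a granule protein gene (4.63 in wild-type and 4.45 in NOS2-/- mice), S100a9 (3.91 and 3.12), S100a8 (3.37 and 2.52), Itgam, an integrin gene (3.53 and 2.15), and Cd177 (3.33 and 2.84). The mean of the list lay between 9.01 and 9.16 in wild-type saline mice, between 10.89 and 11.04 at 7 h and between 10.99 and 11.20 at 22 h. In NOS2-/- mice it was 9.21 after saline, 10.65 to 10.91 at 7 h and 11.19 to 11.20 at 22 h, and the genotypes overlapped at 22 h. The median log2 fold change of the list at 22 h was 1.84 in wild-type and 2.15 in NOS2-/- mice, and 5 of the 18 genes were higher and 5 lower in NOS2-/- than in wild-type mice. The part of neutrophils in the acute-phase values was not tested. In whole lung, more cells of a type and more RNA per cell cannot be told apart.

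Liver cells, the main source of plasma acute-phase proteins, were checked by 12 measured hepatocyte genes. Their mean lay between 7.85 and 8.25 in all 17 arrays, and in wild-type mice at 22 h 1 was higher (Fga, the fibrinogen alpha chain, 1.97) and 1 lower (Cyp2e1, -1.83). Macrophage genes were mixed, with 6 of 11 higher and 4 lower in wild-type mice at 22 h and list means between 9.91 and 10.26. The 9.91 was wild-type LPS 22 h replicate 2, and the other wild-type mice of that time lay at 10.26 and 10.12. In NOS2-/- mice at 22 h the macrophage means lay between 9.90 and 9.95, and 5 of the 11 genes were lower than in wild-type mice. The part of macrophages in the genotype differences was not tested. Among genes of resident lung cells, 8 of 9 for alveolar type 2 cells, 8 of 10 for endothelium and 6 of 9 for fibroblasts were lower in wild-type mice at 22 h, where 20% of all probe sets were. Of 8 club and ciliated cell genes, 2 were higher and 2 lower, and of 4 mesothelium genes 3 were lower. Their part in the acute-phase values was not tested either.

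**Figure D5:**
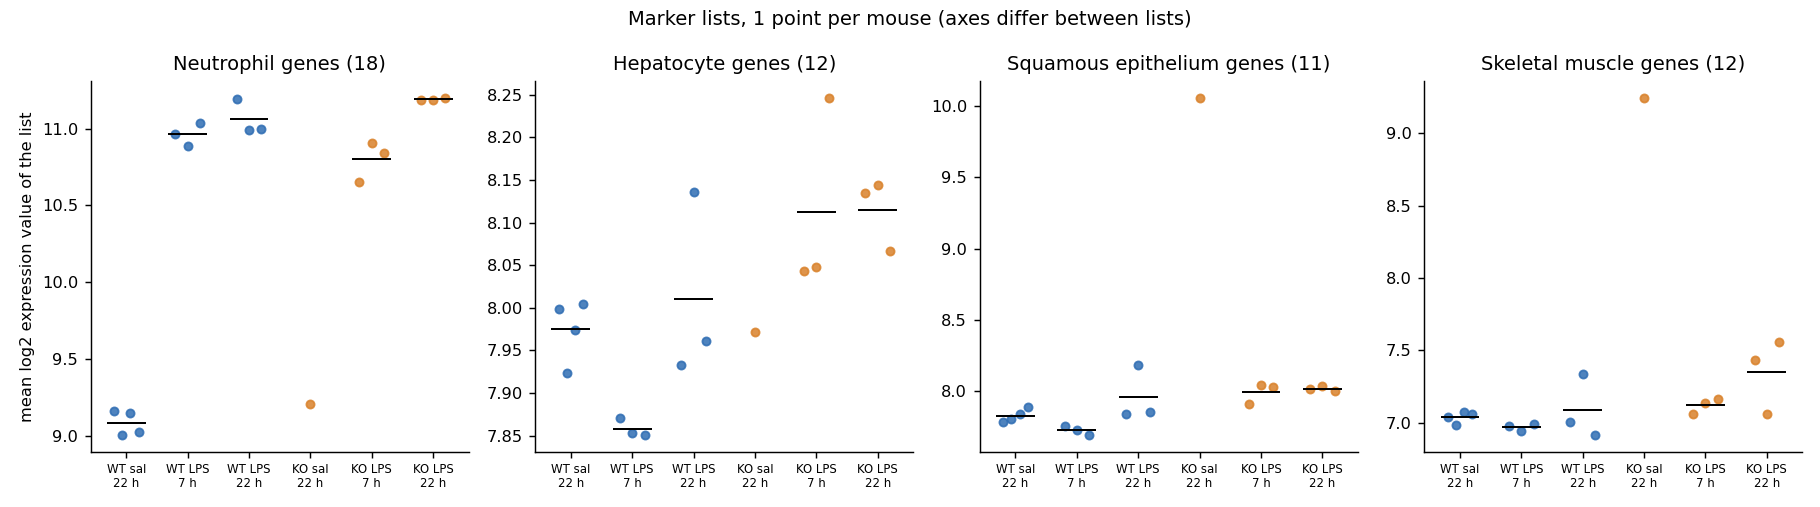
Mean log2 value of the measured genes (number in brackets) of 4 cell type lists, 1 point per mouse, with lines at group means and an axis of its own for each list (WT, wild-type; KO, NOS2-/-; sal, saline). Neutrophil genes rise after LPS in both genotypes, hepatocyte genes stay between 7.85 and 8.25, and the NOS2-/- saline mouse is high for squamous epithelium (10.06) and skeletal muscle genes (9.24).

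Likeness of pattern was described by the root mean square difference of the 6 group means, each probe set centred on their average, without a test. Among the members, Hpx and Serpina3n were closest to each other (0.16 log2 units), followed by Lcn2 and Hpx (0.19). Outside the members, the nearest genes to Saa3 were Cxcl9 (0.37), Cxcl2 (0.66) and Slfn4 (0.79), the Cxcl genes encoding chemokines. Those nearest to Lcn2 were Socs3 (0.15), Timp1 (0.16) and Mt1, a metallothionein gene (0.18). Orm1 was nearest to Ifitm6 (0.33), Fpr2 (0.34) and the chemokine gene Cxcl13 (0.42). Orm2 was nearest to Kcnj8, a potassium channel gene (0.15), Pappa, a protease gene (0.16), and Porcn, a gene of Wnt secretion (0.17), all highest in wild-type mice at 22 h. Cp was nearest to Clip4 (0.12), Ncf4, a gene of the phagocyte oxidase (0.13), and Vmp1, an autophagy gene (0.13).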

How the data were processed

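Lung RNA of 17 mice was hybridised to 17 arrays. The authors deposited log2 expression values for 22690 probe sets. The submitters' processing notes name the affy package for these deposited values, and give neither its version nor its options (not given in the sources used here). After 64 control probe sets were left out, 22626 were tested, of which 20380 named 1 gene, 691 several and 1555 none. One mean per group was fitted over all arrays with limma 3.58.1 (R 4.3.3), and 11 contrasts were tested with Benjamini-Hochberg adjustment over all probe sets, at an adjusted p under 0.05. The code was tested on simulated data. Of each further gene list, at most 6 genes were named, those with the largest called change in wild-type mice at 22 h, plus a few fixed names. Members and lists were chosen with earlier results of these data known. The main fit did not treat mice with the same replicate number as paired. Alternatives changed the normalization, dim probe set filter, prior variance, array weights, arrays fitted, saline control, probe set of a gene, threshold and replicate block, and left out each array in turn, except the single NOS2-/- saline mouse. Correlations, differences of list means and nearest patterns are descriptions without a test.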

Additional observations from a re-analysis of the deposited data

Results flagged for a closer look

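In 4 cases a change differed between genotypes by a limma interaction contrast (adjusted p under 0.05, NOS2-/- minus wild-type). The change of Orm2 from 7 h to 22 h after LPS differed by -1.28 log2 units, being 0.08 in NOS2-/- and 1.36 in wild-type mice. The response of Orm2 to LPS at 22 h over saline differed by -1.40, that of Orm1 by -1.29 and that of Cp by -0.86. The last 3 rest on 1 NOS2-/- saline mouse, whose lung sample carried squamous epithelium and skeletal muscle genes, and the part of this in the values was not tested. No group of 4 mice held a value of a member far enough from the others to pass Dixon's criterion.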

How the results depend on the processing

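Over 29 alternatives and 110 values of a gene in a comparison, 2938 values kept their side of the threshold, 16 lost their call, 43 gained one and 2 called values reversed. Of the 2938, 51 changed sign, all without a call under either setting (19 of the 110). Of 301 counts of called genes, 46 gained or lost a gene. The LPS rise over saline was called in 9 to 10 genes of wild-type mice and 9 of NOS2-/- mice when each array was left out in turn. The reversals of called values were those of Cp on its dimmest probe set, with a genotype difference at 22 h of 0.10 (adjusted p = 0.712) and a difference between responses of 0.0117 (adjusted p = 0.994). With quantile normalization, genes called numbered 5 for genotype at 22 h, 4 for 22 h against 7 h in wild-type mice and 3 for the difference of that change between genotypes. With array weights, whose estimation stopped short of its convergence tolerance, these became 6, 4 and 4. Array weights also gave 4 genes for genotype at 7 h, 2 for 22 h against 7 h in NOS2-/- mice and 2 for the difference between responses at 7 h. Shares over all probe sets were not computed for these 2 settings, so their counts have no background. Wild-type LPS 22 h replicate 2 had an array weight of 0.041. Leaving that mouse out called 6092 of all 22626 probe sets for genotype at 7 h, against 454 with it. With dim probe sets left out, Orm2 was not tested and 1 gene was called for 22 h against 7 h in wild-type mice. Requiring a 2-fold change left 0 for that comparison in NOS2-/- mice, where Orm1 was 1.68-fold higher. Leaving out each array gave 0 to 1 gene for genotype at 7 h, 3 to 6 at 22 h, 2 to 4 for 22 h against 7 h in wild-type mice and 1 to 4 for its difference between genotypes. The upper ends came without wild-type LPS 22 h replicate 2. The last count was 2 when NOS2-/- LPS 7 h replicate 3 was left out. The cause of these shifts was not tested. Of 30 comparisons of same-numbered mice, 4 correlated above 0.1 in their deviations from group means (range -0.38 to 0.36). With so few mice per group, these values cannot show whether same-numbered mice share more than a number. The replicate block ended the call of Cp for the difference between responses at 22 h (-0.79, adjusted p = 0.0824) and changed no other call of the 10 genes. Dim signal limits Orm2, and the top of the range may limit Saa3, Lcn2 and Hp.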
